A study of Homo sapiens with 12 samples.

Results

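The 9 genes described here encode the core of 2 intracellular sensing systems: the NOD receptors NOD1 and NOD2 with their kinase adaptor RIPK2, and the inflammasome genes NLRP1, NLRP3, PYCARD, CASP1, CASP4 and GSDMD. They were chosen by name, as members of these pathways, and all 9 were listed among the 28901 named genes of the count table. RNA was sequenced from adipocytes that had been differentiated for 14 days from ASC52telo hTERT, a human adipose stromal cell line immortalized with telomerase. The cells carried a lentiviral ZsGreen vector with scramble shRNA or linc-ADAIN shRNA (linc-ADAIN KD; linc-ADAIN is a long intergenic non-coding RNA of adipose tissue) and had been sorted for ZsGreen before differentiation. Adipocytes of each kind were left without LPS or given LPS, the endotoxin of Gram-negative bacteria, at 100 ng/mL for 4 h, which gave 4 groups of 3 libraries. All 12 libraries therefore came from 1 immortalized line with the same vector backbone and the same kind of sort. They went through the same differentiation with insulin, dexamethasone, isobutylmethylxanthine and rosiglitazone. The 2 kinds of cell were separate transduced and sorted populations, with 1 shRNA sequence each. An effect of KD and a difference between these populations therefore cannot be told apart. The 3 libraries of a group came from an experiment in triplicate, so p-values measure the spread between these samples, which may be technical. linc-ADAIN levels were not analysed here, so the knockdown rests on the labels.

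NOD1 and NOD2 are cytosolic receptors for fragments of bacterial peptidoglycan, NOD1 for diaminopimelic acid-containing peptides and NOD2 for muramyl dipeptide. Both bind RIPK2 through their CARD domains, and RIPK2, once ubiquitinated by XIAP and other ligases, recruits the TAK1 and IKK kinases that activate NF-kB. Inflammasomes are complexes in which a sensor such as NLRP1 or NLRP3 recruits the adaptor ASC, encoded by PYCARD, and caspase-1, which matures IL-1beta and IL-18. Caspase-4 binds cytosolic LPS directly, and both caspases cleave gasdermin D, which forms pores in the plasma membrane. Activation of either system is largely post-translational, and the values here are mRNA levels only.

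Counts on named genes totalled 48.1 to 53.8 M (units of 1e6) per scramble library, 31.5 to 44.5 M with LPS, 33.4 to 50.5 M for KD and 28.4 to 45.3 M for KD with LPS. Levels are given as CPM, counts per 1e6 after scaling by TMM, a method that corrects for library composition. A gene is said to have risen or fallen where edgeR's quasi-likelihood F test gave an adjusted p under 0.05 over all genes tested. Of the cell markers, the summed level of 6 adipocyte genes was 2785 to 3908 CPM in scramble, 3316 to 3754 in scramble with LPS, 553 to 1639 in KD and 460 to 1079 in KD with LPS. The summed level of 8 stromal genes was 5978 to 7404, 5665 to 6420, 8251 to 9845 and 9314 to 10731 CPM in the same order. The stromal genes did not move as a group: KD raised 4 of the 8 and lowered 3 both without and with LPS. In these comparisons 27.2% and 26.9% of all genes tested passed in either direction. Log2 fold changes with KD were 0.88 and 1.31 for DCN and 2.02 and 2.49 for LUM. They were -2.37 and -2.53 for THY1 and -1.36 and -1.42 for ENG. DCN alone stood at means of 2671, 2431, 4904 and 6041 CPM in the 4 groups. The sum of 11 marker genes of myeloid cells, in which NOD2 and NLRP3 are abundant, was 60.0 to 64.0, 62.0 to 75.1, 90.8 to 124 and 83.9 to 114 CPM. Of these, AIF1 and TYROBP were at 0 in every library, SPI1 was at 0 to 3 counts, ITGAM at 0 to 6 and PTPRC at 0 to 12, whereas CD163 rose with KD (log2 fold change 3.99 without LPS and 4.11 with LPS) and CD68 fell (-0.78 and -1.25). The summed level of 5 endothelial genes was 23.6 to 27.1, 15.3 to 17.0, 11.8 to 12.3 and 8.45 to 13.2 CPM. KDR went against this sum, at means of 0.084, 0.11, 0.68 and 3.12 CPM. In KD with LPS it was higher by 4.89, whereas VWF (-2.77), TEK (-0.80) and PECAM1 (-0.72) were lower. The summed level of 7 lymphoid genes stayed under 0.5 CPM. Mean CD163 was 4.33, 3.79, 68.6 and 66.0 CPM in the 4 groups, and mean CD68 was 53.6, 60.1, 31.1 and 25.4 CPM. The adipocyte and endothelial sums were thus lower in KD. The myeloid sum was higher with CD163, against a fall of CD68. KD raised 1 and lowered 1 of the 6 myeloid genes tested without LPS. With LPS, KD raised 2 and lowered 1 of 7, where 26.9% of all genes passed in either direction. The second to rise there was CD14, by 2.69 (adjusted p = 0.0014, edgeR), at means of 0.35 CPM in scramble with LPS and 2.25 in KD with LPS. Stromal, myeloid and endothelial genes each moved both ways. The part of these markers in the KD results below was not tested. In bulk RNA, fewer cells of a type and less RNA per cell cannot be told apart.

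In the adipocytes without stimulus, the caspase CASP4, the adaptor RIPK2 and the pore protein GSDMD were the best represented members, and NOD2 and NLRP3 the least. Per kilobase of the canonical transcript in scramble control, the mean level was 47.4 CPM for CASP4, 15.1 for RIPK2, 12.5 for GSDMD, 5.27 for PYCARD, 2.23 for NOD1, 2.09 for CASP1 and 1.12 for NLRP1. NOD2 and NLRP3 stood at 0.0058 and 0.0032 CPM per kilobase, which is a handful of counts per library. The neighbours in this order did not overlap between libraries, except NOD1 with CASP1 and NOD2 with NLRP3. The line thus carried message for the LPS-binding caspase and the pore protein, and almost none for NLRP3, the best known inflammasome sensor.

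**Figure D1:**
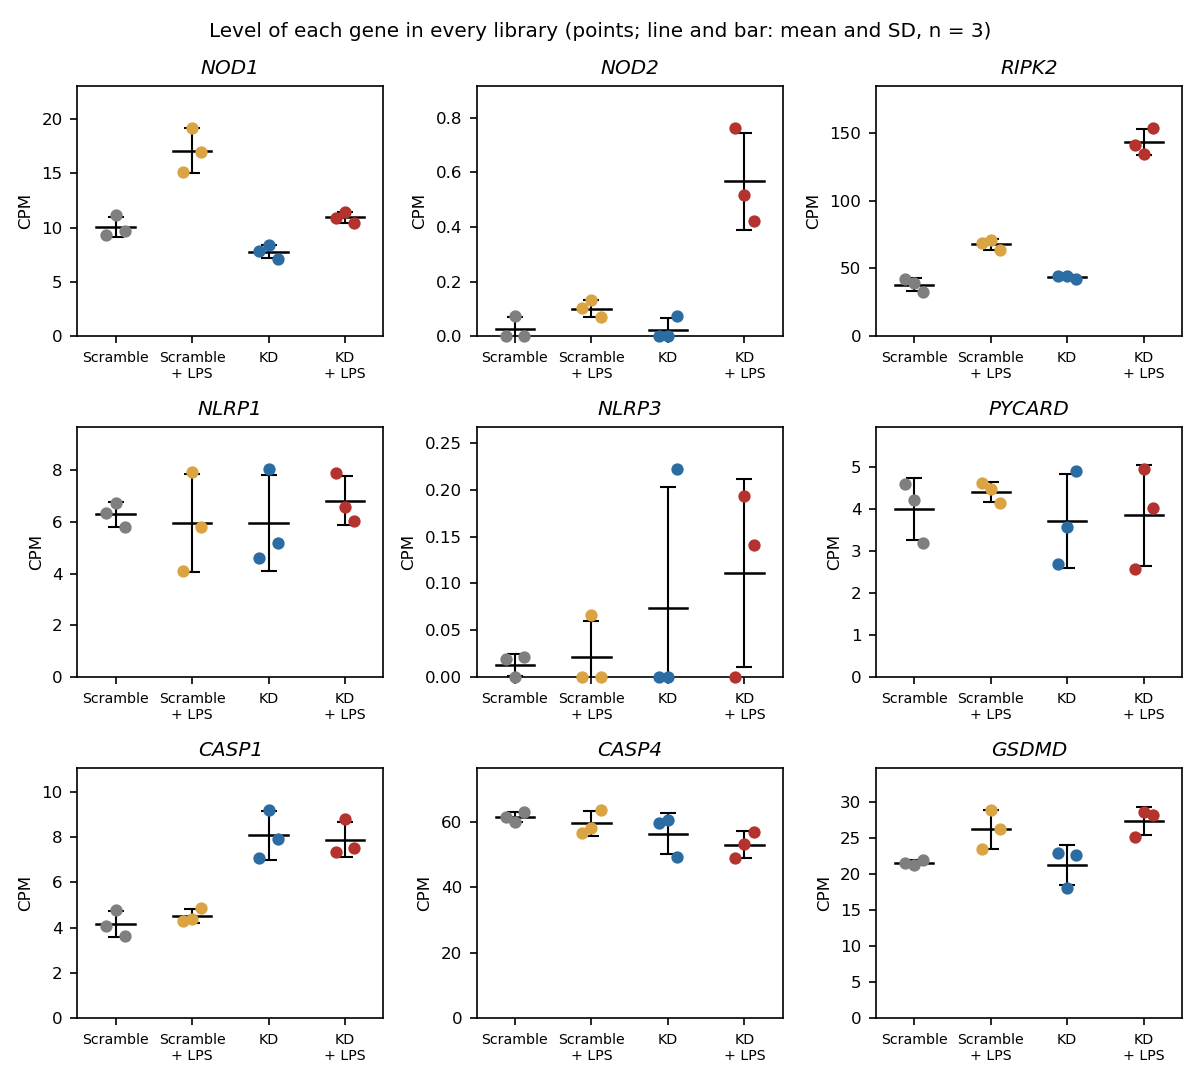
Level of the 9 genes in CPM (vertical axes, linear, different ranges) in each of the 12 libraries (points, by group), with the mean and SD of 3 libraries. RIPK2 was highest in KD with LPS, CASP1 was higher in both KD groups, NOD1 was highest in scramble with LPS, and NOD2 and NLRP3 lay under 1 CPM everywhere.

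RIPK2, the kinase adaptor through which both NOD receptors signal, was the member with the clearest response. It lies on chromosome 8 of GRCh38 between 89757806 and 89791064. Its level was 42.2, 39.3 and 32.5 CPM in the scramble libraries and 44.5, 44.7 and 42.1 CPM in KD. After LPS it was 68.8, 71.2 and 63.3 CPM in scramble and 141, 134 and 154 CPM in KD. The 2 groups without LPS overlapped, whereas every scramble library with LPS lay above them and every KD library with LPS lay above all others. In scramble control LPS raised RIPK2 by a log2 fold change of 0.85 (SE 0.10, adjusted p = 0.00020, edgeR), a fold of 1.80. In KD the rise was 1.71 (SE 0.086, adjusted p = 4.9e-09), a fold of 3.27. KD without LPS gave 0.21 (SE 0.10, adjusted p = 0.16), with a 95% interval of -0.017 to 0.43. With LPS, RIPK2 was higher in KD by 1.08 (SE 0.085, adjusted p = 5.5e-07). These pairs of comparisons share libraries, so the difference between the LPS responses was tested in a single fit of all 12. The LPS response was larger in KD by 0.88 on the log2 scale (SE 0.13, 95% interval 0.60 to 1.15, adjusted p = 0.0019), an LPS fold 1.83 times that in scramble. This interaction passed the test for 219 of 17173 genes, or 1.28%.

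NOD1, the receptor of the pair with a measurable level, went the other way with KD. The gene is on chromosome 7, minus strand, from 30424527 to 30478784, and its canonical transcript has 14 exons. The scramble libraries stood at 9.36, 11.1 and 9.67 CPM and rose with LPS to 15.1, 19.2 and 16.9 CPM. The KD libraries stood at 7.86, 8.37 and 7.14 CPM, and at 10.9, 11.5 and 10.4 CPM with LPS. LPS separated the libraries of both kinds of cell, and each KD group lay below its scramble counterpart without overlap. KD with LPS overlapped scramble without LPS. LPS raised NOD1 in scramble by 0.77 (SE 0.13, adjusted p = 0.0021, edgeR). In KD the difference was 0.49 (SE 0.16, adjusted p = 0.069), which a fit over all 12 libraries placed at an adjusted p of 0.030. With LPS, NOD1 was lower in KD by a log2 fold change of -0.64 (SE 0.14, adjusted p = 0.0035), a fold of 0.64. Without LPS the difference was -0.36 (SE 0.15, adjusted p = 0.093). Whether the LPS response differed between the 2 kinds of cell was not resolved (interaction -0.27, SE 0.20, 95% interval -0.69 to 0.14, adjusted p = 0.68). With LPS, then, the receptor NOD1 was lower and its adaptor RIPK2 higher in the same KD libraries.

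The sequence before the NOD1 start is shown because NOD1 is the LPS-responsive receptor among the members. Windows of 250 bases before the start, from RefSeq (GRCh38.p14), were searched for 5 of the 9 members: NOD1, NOD2, NLRP3, PYCARD and CASP4. No window was at hand for NLRP1 and CASP1, and RIPK2 and GSDMD were left out of the search. The motif results below therefore do not cover RIPK2, the member with the clearest LPS response. For NOD1 the window is chr7:30478785-30479034 on the minus strand, printed 5′ to 3′ with capitals marking 2 adjacent matches to GGGCGG, the GC box, which read as CCGCCC on this strand.
NOD1: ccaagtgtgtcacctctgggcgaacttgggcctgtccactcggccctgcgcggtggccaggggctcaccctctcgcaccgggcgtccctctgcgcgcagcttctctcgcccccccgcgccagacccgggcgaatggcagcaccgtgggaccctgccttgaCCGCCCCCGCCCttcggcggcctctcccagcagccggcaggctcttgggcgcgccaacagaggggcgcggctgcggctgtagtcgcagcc
The window is 74.0% G or C, against a median of 58.0% over all windows, and GGGCGG occurs on either strand in 42.64% of the 35116 windows searched. The NF-kB consensus motif, searched on both strands, was found in none of the windows of the 5 members and is present in 9.96% of all windows. TGANTCA, the AP-1 site, also had no match in them (6.57% of all windows), and neither did the core of the interferon-stimulated response element (3.02%). TATAAA was found in the NLRP3 window alone among these, from 29 to 24 bases before the start (10.72% of all windows). These matches describe letters in a short window and carry no statement about binding.

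NOD2 was nearly silent except in KD with LPS. The gene is on chromosome 16 from 50693588 to 50733077. Its estimated counts were 0, 4 and 0 in scramble, 4, 4 and 3 in scramble with LPS, 0, 0 and 3 in KD, and 27, 24 and 12 in KD with LPS. Each KD library with LPS lay above all 9 others, at 0.42 to 0.76 CPM, and the other groups overlapped or held at most 4 counts. Over the summed counts, KD with LPS exceeded KD without LPS by a ratio of 24.6 (95% interval 8.04 to 122, counting error only) and scramble with LPS by 5.82 (3.04 to 12.2). The test over libraries did not pass: the log2 fold change was 4.39 for LPS in KD (SE 1.50, adjusted p = 0.081, edgeR) and 2.46 for KD with LPS (SE 1.01, adjusted p = 0.095). Both passed with edgeR's own expression filter (adjusted p = 0.026 and 0.029). NOD2 could meet that filter only through its KD libraries with LPS, so those calls are no separate support. DESeq2 gave an adjusted p of 0.045 for KD with LPS but did not call NOD2 for LPS in KD. The call thus rests on the treatment of low counts. Leaving out 1 library at a time, the adjusted p for LPS in KD was 0.039 to 0.23 (edgeR); the 0.039 came without KD replicate 3, the only KD library with a NOD2 count, which left that group at 0 counts and its fold without a size. LPS in scramble gave 1.87 (SE 1.65, adjusted p = 0.53), and the interaction could not be resolved (2.53, SE 2.22, adjusted p = 0.76). Without LPS, NOD2 had too few counts to be tested for KD.

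**Figure D2:**
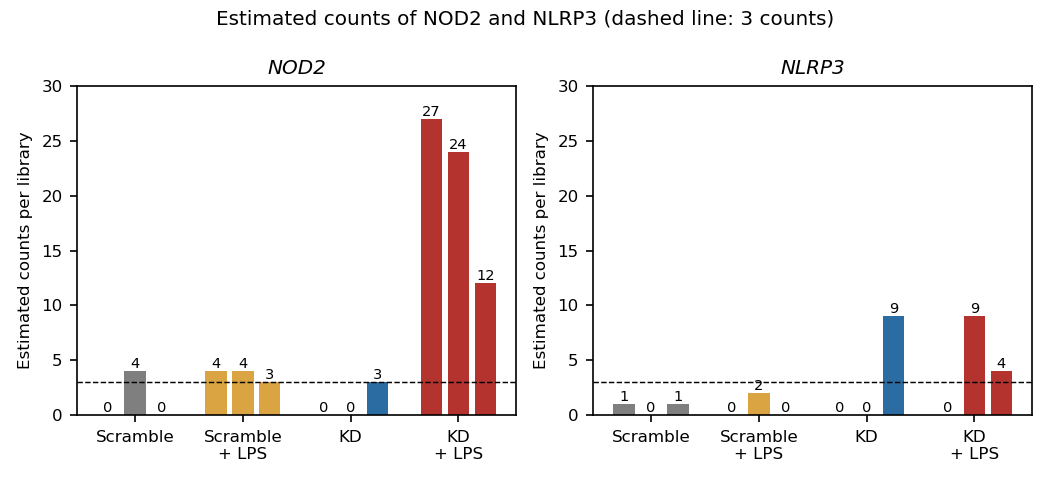
Estimated counts per library (vertical axis, 3 bars per group) of NOD2 and NLRP3, with a dashed line at 3 counts. NOD2 passes 4 counts only in the 3 KD libraries with LPS (27, 24 and 12), whereas NLRP3 reaches at most 9 counts, in 1 KD library and 1 KD library with LPS.

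Around the receptors, the genes of NOD and RIPK2 signalling (XIAP, BIRC2, BIRC3, the TAB proteins, MAP3K7, the IKK subunits, the linear ubiquitin ligase and others, 16 tested) changed in part. LPS raised 5 of the 16 in scramble and 4 in KD and lowered none, where 14.3% and 11.3% of all genes tested passed in either direction. KD raised 3 and lowered 2 without LPS, and raised 4 and lowered 1 with LPS, where 27.2% and 26.9% of all genes passed. By edgeR 0 genes of this list passed the interaction test, with 1 at an unadjusted p under 0.05, and DESeq2 also gave 0. BIRC3, the ubiquitin ligase cIAP2 that modifies RIPK2, changed most: its mean level was 2.70 CPM in scramble, 9.96 with LPS, 19.6 in KD and 81.3 in KD with LPS. The log2 fold changes were 1.89 for LPS in scramble (adjusted p = 0.0010, edgeR), 2.05 for LPS in KD (7.9e-09), 2.86 for KD without LPS (9.7e-06) and 3.03 for KD with LPS (1.7e-09). BIRC2, which encodes the related ligase cIAP1, rose by 0.47, 0.68, 0.52 and 0.74 in the same 4 comparisons. IKBKB, the catalytic IKK subunit, rose with LPS by 0.35 in scramble and 0.60 in KD. MAP3K7, which encodes TAK1, and its partner TAB2 were lower in KD without LPS (-0.41 and -0.29). CARD6, a CARD protein that binds RIPK2, was lower in KD with LPS (-0.59, adjusted p = 0.013).

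The brakes of the pathway responded to LPS as well. Of 5 tested, 2 rose with LPS in both kinds of cell, where 14.3% and 11.3% of all genes passed in either direction. TNFAIP3, the deubiquitinase A20, rose by 1.87 in scramble and 2.23 in KD, and CYLD by 0.58 and 0.82. ITCH, a ligase that acts on RIPK2, was lower in KD by -0.43 without LPS and -0.32 with LPS. Of the 7 genes for muropeptide transport and handling, 6 were tested. NAGK, the kinase that phosphorylates muramyl dipeptide, was higher in KD by 0.60 without LPS and 0.50 with LPS, SLC15A4 was higher in KD with LPS by 0.32, and SLC46A3 rose with LPS in scramble by 1.06. All of the 8 NF-kB target genes tested rose with LPS in scramble and in KD, against the same 14.3% and 11.3%. These genes were listed as known targets, with earlier results of these data known, so their share is no independent test. KD raised 5 of them without LPS and 7 with LPS, where 27.2% and 26.9% of all genes passed in either direction. IL6 and CCL2 passed the interaction test, as RIPK2 did, with values of 1.17 and 1.15.

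**Figure D3:**
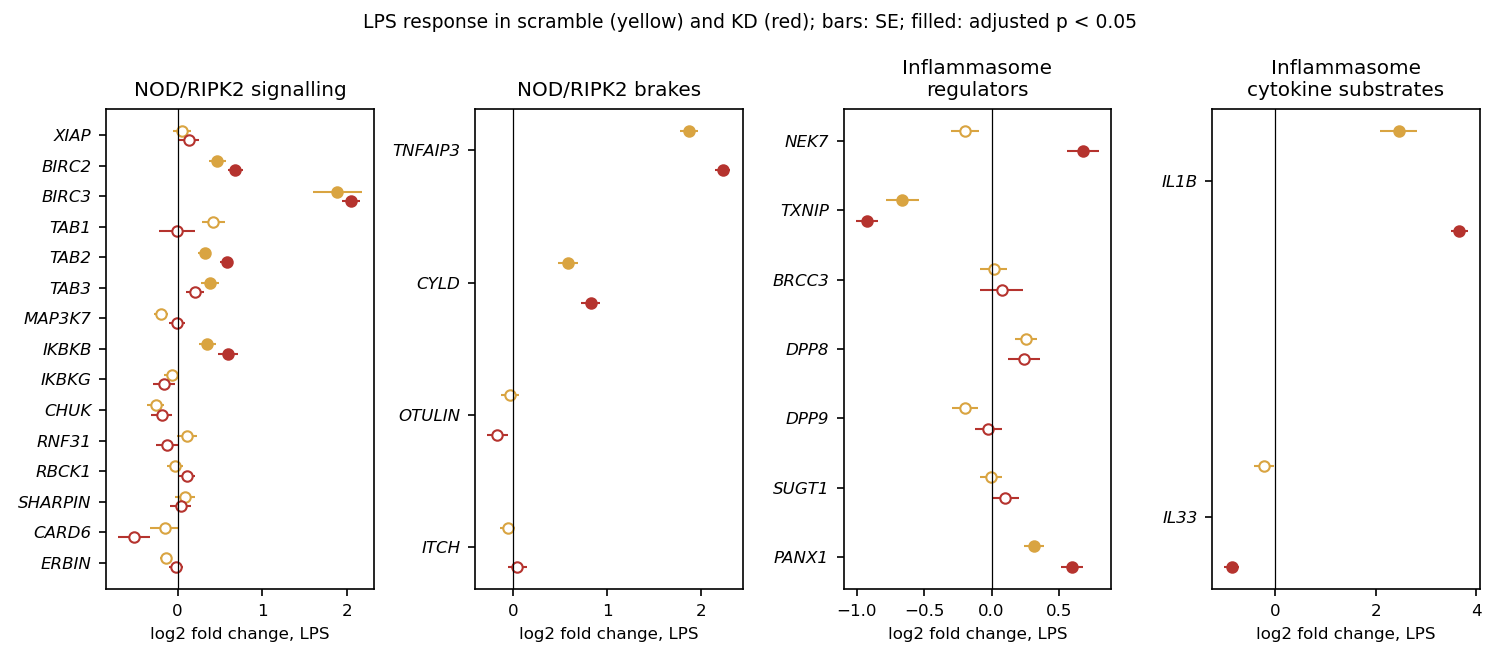
LPS response (horizontal axes, log2 fold change, with SE bars) of those pathway genes whose average reached 50 counts per library, in scramble (yellow) and KD (red); filled points passed the test. BIRC3 and TNFAIP3 lead their groups in both kinds of cell, NEK7 passed in KD, and IL1B and IL33 moved in opposite directions in KD.

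CASP1, the protease that matures IL-1beta, was higher in KD whether or not LPS was given. It lies on the minus strand of chromosome 11 from 105025397 to 105035250. Its level was 4.06, 4.77 and 3.65 CPM in scramble and 7.09, 9.21 and 7.93 CPM in KD. With LPS the libraries stood at 4.30, 4.39 and 4.85 CPM in scramble and 7.36, 8.80 and 7.52 CPM in KD. The 6 libraries of KD and the 6 of scramble did not overlap. The KD difference was 0.96 without LPS (SE 0.19, adjusted p = 0.0024, edgeR), a fold of 1.95, and 0.81 with LPS (SE 0.20, adjusted p = 0.0073), a fold of 1.75. CASP1 showed no LPS difference past the test in scramble (0.13, 95% interval -0.30 to 0.56) or in KD (-0.033, -0.42 to 0.35), and the interaction was -0.15 (-0.70 to 0.40). CARD16, a neighbouring gene with a nearly identical CARD, can share reads with CASP1. Its own counts were 19 to 56 in scramble, 0 to 4 in scramble with LPS, 52 to 56 in KD and 26 to 72 in KD with LPS. With both rows summed, an alternative added after seeing the data, the KD difference was 0.92 without LPS and 1.03 with LPS (adjusted p = 0.0024 and 0.0010).

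The other inflammatory caspase, CASP4, the cytosolic LPS receptor, was the most abundant member per kilobase and varied least. It lies beside CASP1 on chromosome 11, from 104942866 to 104969366. Its range was 59.8 to 63.0 CPM in scramble, 56.6 to 63.7 with LPS, 49.3 to 60.4 in KD and 48.9 to 56.9 in KD with LPS. Neighbouring group means overlapped in their libraries and no comparison passed the test. The 95% intervals bounded the KD difference at -0.32 to 0.083 without LPS and -0.37 to 0.034 with LPS, and the LPS difference at -0.21 to 0.14 in scramble and -0.31 to 0.13 in KD. CASP5, the related caspase that is also inducible by LPS in myeloid cells, was at 0 in 11 libraries and at 6 counts in the other, a KD library with LPS.

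GSDMD, the pore-forming substrate of both caspases, sits on chromosome 8 between 143553207 and 143563062. It was at 21.5, 21.3 and 22.0 CPM in scramble and 23.6, 29.0 and 26.2 CPM with LPS. In KD it was at 23.0, 18.2 and 22.7 CPM, and at 25.2, 28.7 and 28.3 CPM with LPS. In both kinds of cell each library with LPS lay above each without. The differences were small and missed the threshold: 0.29 in scramble (SE 0.10, adjusted p = 0.079, edgeR) and 0.37 in KD (SE 0.12, adjusted p = 0.079). Leaving out 1 library at a time, the first ranged from 0.22 to 0.36 with adjusted p from 0.22 down to 0.039, the latter without scramble LPS replicate 1, and in the fit over all 12 libraries the second reached 0.046. The KD differences were -0.019 without LPS (95% interval -0.27 to 0.23) and 0.061 with LPS (-0.19 to 0.31).

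The sensors and the adaptor showed no difference past the test. NLRP1, on chromosome 17 from 5499415 to 5619424, senses viral proteases and other stresses in epithelial cells. It ranged over 5.78 to 6.71 CPM in scramble, 4.12 to 7.89 with LPS, 4.58 to 8.04 in KD and 6.01 to 7.86 in KD with LPS. PYCARD, on chromosome 16 from 31201486 to 31203450, ranged over 3.18 to 4.59, 4.12 to 4.60, 2.68 to 4.89 and 2.57 to 4.95 CPM in the same order. All 4 groups overlapped for both genes, and their 95% intervals in the pairwise comparisons reached from -0.79 to 0.73, so that smaller changes were not resolved. PYCARD overlaps an antisense gene, PYCARD-AS1, and how the counting used strand is not given in the sources used here. NLRP3, on chromosome 1 from 247416156 to 247449108, had counts of 1, 0 and 1 in scramble, 0, 2 and 0 with LPS, 0, 0 and 9 in KD, and 0, 9 and 4 in KD with LPS. Its ratio of summed counts was 5.29 for KD without LPS (95% interval 1.10 to 50.3, counting error only) and 6.60 with LPS (1.50 to 60.3), and the former rests on a single library. Tested over libraries, the KD difference of NLRP3 was 2.25 without LPS (95% interval -2.36 to 6.87, adjusted p = 0.48, edgeR). With LPS it was 2.31 (-2.13 to 6.75, adjusted p = 0.46, edgeR). NLRP3 had no test past the threshold and too few counts for a test of LPS in scramble.

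**Figure D4:**
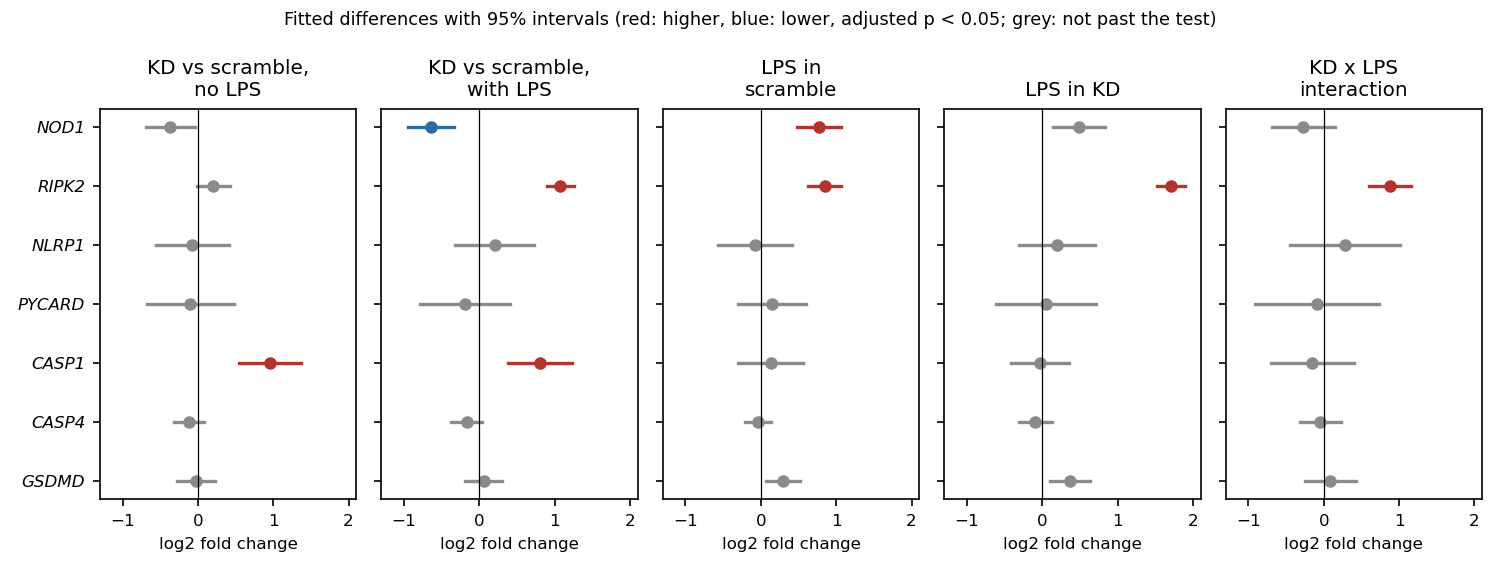
Log2 fold change (horizontal axes) with 95% interval for the 7 members with enough counts, in the 4 pairwise comparisons and the interaction of KD with LPS. Red and blue points passed the test (RIPK2 in 4 panels beside NOD1 in 2 and CASP1 in 2), while grey points did not; the intervals of CASP4 and GSDMD are narrower than those of PYCARD and NLRP1, and those of GSDMD for LPS lie above 0.

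Counted together, 1 of 8 members tested passed for KD without LPS, against 27.2% of the 16217 genes tested. For KD with LPS it was 3 of 9 against 26.9%, for LPS in scramble 2 of 8 against 14.3%, for LPS in KD 1 of 9 against 11.3% and for the interaction 1 of 9 against 1.28%. Libraries of the compared groups did not overlap for 2, 4, 3 and 4 of the 9 members in the pairwise comparisons, against 42.5%, 40.6%, 32.1% and 27.3% of all genes. These counts are too few to set the members apart from all genes. The median log2 difference of the tested members was -0.045, 0.20, 0.22 and 0.37, beside 0.024, 0.025, 0.020 and 0.0099 over all genes.

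The other inflammasome genes put the members in context. Of 13 other NLR family genes, 7 to 9 had enough counts in each comparison, and by edgeR 0 passed in any of the 5 (at an unadjusted p under 0.05, 1 for KD without LPS and 1 for LPS in scramble). DESeq2 called 1 of them, for KD without LPS. Among the other sensors, IFI16, a DNA sensor, was lower in KD by -0.33 without LPS and -0.35 with LPS, while AIM2, MEFV and CARD8 did not pass. Of the 12 regulators, 9 were tested: KD raised 1 and lowered 3 without LPS and raised 3 with LPS. LPS raised 1 and lowered 2 in scramble and raised 3 and lowered 1 in KD. Of all genes tested, 27.2% and 26.9% passed for KD without and with LPS, in either direction. For LPS in scramble and in KD it was 14.3% and 11.3%. NEK7, the kinase that licenses NLRP3, was at 52.8 CPM in scramble, 45.6 with LPS, 28.2 in KD and 45.2 in KD with LPS. KD lowered NEK7 without LPS (-0.90, adjusted p = 0.00016, edgeR), LPS raised it in KD (0.68, adjusted p = 0.0013), and the interaction was 0.89 (adjusted p = 0.0086). TXNIP, which binds NLRP3 and thioredoxin, was higher in KD without LPS (0.56) and fell with LPS by 0.66 in scramble and 0.92 in KD. P2RX7, the ATP receptor upstream of NLRP3, was higher in KD with LPS by 2.83, at 0.41, 0.39, 1.12 and 2.83 CPM in the 4 groups.

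CASP8, a caspase linked to these pathways that can stand in for caspase-1, was lower in KD with LPS (-0.73, adjusted p = 0.0022, edgeR) and fell with LPS in KD by 0.52. NINJ1, which carries out plasma membrane rupture downstream of gasdermin pores, rose in all 4 pairwise comparisons: by 1.41 and 1.59 with KD and by 1.77 and 1.93 with LPS. Its mean level was 11.4, 38.6, 30.3 and 116 CPM in scramble, scramble with LPS, KD and KD with LPS. GSDMB was higher in KD without LPS (1.17). No other gene of this list of 6, of which 5 or 6 were tested, passed in any pairwise comparison by edgeR, and 0 genes of it passed the interaction test (0 at an unadjusted p under 0.05, 0 by DESeq2).

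Among the listed cytokines of the IL-1 family, IL1B, whose product caspase-1 matures, was at 1.11 CPM in scramble and 6.06 with LPS. It was at 11.0 CPM in KD and 138 in KD with LPS. IL1B rose by 2.46 with LPS in scramble (adjusted p = 0.00088, edgeR), by 3.66 with LPS in KD (1.6e-09), by 3.31 with KD (1.4e-05) and by 4.50 with KD under LPS (4.1e-09). Its interaction did not pass the test (1.19, SE 0.38, adjusted p = 0.17, edgeR). By edgeR 0 of the 4 cytokine genes tested passed it, with 2 at an unadjusted p under 0.05, and DESeq2 also gave 0. IL1A, which signals through the same receptor without needing caspase-1, was at 0.067, 0.22, 0.60 and 11.5 CPM and rose by 5.66 with KD under LPS and by 4.33 with LPS in KD. IL33 was lower in KD (-0.90 without LPS, -1.53 with LPS) and fell with LPS in KD by 0.85. IL18, the other substrate of caspase-1, was at 0 to 15 counts in every library and no test of it passed. Of the interferon-stimulated genes tested, KD raised 4 and lowered 3 of 12 without LPS and raised 5 and lowered 1 of 12 with LPS. LPS raised 4 of 13 in scramble and raised 6 and lowered 1 of 12 in KD. The shares of all genes passing in these 4 comparisons were 27.2%, 26.9%, 14.3% and 11.3%, in either direction. GBP1, a guanylate-binding protein that brings LPS to caspase-4, was lower in KD without LPS (-1.41), with an interaction of 1.43 (adjusted p = 0.00024, edgeR).

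The genes whose pattern over the 12 libraries was most like a member's were found among 11810 or 11811 genes with at least 50 counts on average, by the root mean square difference of log2 CPM after each gene was centred on its own mean. The nearest to NOD1 were GK5 (0.099), PARP14 (0.11) and FMNL3 (0.12). The nearest to RIPK2 were EIF1B (0.19), EGLN1 (0.22) and TMEM171 (0.22). For NOD2 they were CCL7 (0.52), IL6 (0.61) and CCL2 (0.61), at larger distances than those of NOD1 and RIPK2. For NLRP3 they were ZNF132 (0.59), MC1R (0.62) and CACNG2 (0.62), over libraries with at most 9 NLRP3 counts. The other 5 members spanned less than 1 log2 unit between group means and were not compared in this way.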

How the data were processed

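Adipocytes from the ASC52telo hTERT line were profiled by RNA-seq of poly(A) RNA (a stranded mRNA kit). Per the labels, the authors pseudoaligned reads with kallisto 0.44.0 (GRCh38; bcl2fastq 2.19 and DESeq2 1.32.0 are also named) and deposited estimated counts per gene name, as whole numbers without normalization. The annotation release is not given in the sources used here. Counts on an unnamed row (0.235% to 0.306%) were left out. Libraries correlated within groups at 0.971 to 0.986 (log2 CPM), and 0 columns of samples were unused. In R 4.3.3, genes with at least 10 counts over the libraries of a fit were tested with edgeR 4.0.16 (TMM, quasi-likelihood F test, Benjamini-Hochberg over all genes, adjusted p under 0.05). The 4 pairwise comparisons used 6 libraries each and the interaction all 12. SE is the log2 fold change divided by the square root of F. With 3 against 3 libraries an exact permutation test cannot go below p = 0.1. Intervals on summed counts are exact and cover counting error only. A count of 0 allows up to 3 counts per library.

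Text names all 9 members. From each pathway or marker list it takes, per comparison, up to 2 largest rises and 2 largest falls past the test with a mean of at least 50 counts. For members whose group means span at least 1 log2 unit it takes the 3 nearest genes. Other list genes, among them CARD16, CASP5, AIM2, MEFV, CARD8, IL18, IKBKB and the myeloid markers, were named after their values were seen. Members and lists were chosen with earlier results of these data known. The labels give no batch. Gene positions and transcript lengths are from GENCODE release 44. The steps were tested on simulated data. Alternatives were library size only, DESeq2 size factors, DESeq2 1.42.0, 2 other filters, a fit on all 12 libraries, the replicate block and each library left out. Some genes of the lists are not reported here.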

Additional observations from a re-analysis of the deposited data

Results flagged for a closer look

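RIPK2 stood out because its LPS response differed between the 2 kinds of cell by a test of the difference itself: the interaction of KD with LPS was 0.88 on the log2 scale (SE 0.13, adjusted p = 0.0019, edgeR's quasi-likelihood test), with LPS folds of 1.80 in scramble and 3.27 in KD. All 3 KD libraries with LPS (134 to 154 CPM) lay above all 3 scramble libraries with LPS (63.3 to 71.2 CPM). The summed adipocyte markers were lower in both KD groups, and their part in this difference was not tested.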

How the results depend on the processing

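The interaction of RIPK2 kept its direction and its call under each alternative run (0.79 to 0.98 with a library left out, adjusted p at most 0.0092, edgeR), as did the KD calls of CASP1 and of NOD1 with LPS. Of 43 results on members, 19 were the same in every alternative, none lost a call, and 18 turned direction in at least 1, all of them results not past the test. Scaling by library size only moved the median log2 difference of all genes for KD from 0.024 to 0.13 without LPS and from 0.025 to 0.11 with LPS, and the higher genes among those past the test from 44.5% to 61.4% and from 47.2% to 59.2%. For LPS that share went from 46.9% to 35.2% in KD. That scaling gave 2 members past the test for KD without LPS (RIPK2 added, adjusted p = 0.047), and turned NLRP1 to 0.036, PYCARD to 0.0041 and GSDMD to 0.084 there and PYCARD to -0.00050 for LPS in KD. For LPS in KD, 2 members passed with edgeR's expression filter or with no filter (NOD2 added), 3 in the fit of all 12 libraries (NOD1 and GSDMD added), and 1 to 2 with a library left out. DESeq2 turned the NLRP3 interaction to -0.055. Summing CASP1 and CARD16, chosen after seeing the data, turned CASP1 to -0.11 for LPS in scramble, 0.00020 for LPS in KD and 0.12 for the interaction. The cause was not tested.

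With each library left out, the turned values ranged, for KD without LPS, from -0.36 to 0.078 (NLRP1), -0.34 to 0.076 (PYCARD) and -0.083 to 0.081 (GSDMD). For KD with LPS they ranged from -0.00076 to 0.46 (NLRP1), -0.43 to 0.029 (PYCARD) and -0.0097 to 0.13 (GSDMD). For LPS in scramble they ranged from -0.33 to 0.13 (NLRP1) and -0.086 to 0.00094 (CASP4), and for LPS in KD from -0.092 to 5.19 (NLRP3), -0.17 to 0.29 (PYCARD) and -0.12 to 0.065 (CASP1). For the interaction they ranged from -0.60 to 4.75 (NLRP3), -0.71 to 5.71 (NOD2), -0.32 to 0.14 (PYCARD), -0.15 to 0.0084 (CASP4) and -0.033 to 0.16 (GSDMD). Over all genes, 2274 calls for LPS in scramble became 1187 without scramble replicate 2 and 1461 without scramble LPS replicate 3. The 219 interaction calls became 431 with no filter, 475 by DESeq2, and 92, 131, 136 and 116 without scramble replicate 2, KD replicate 1, KD LPS replicate 2 and KD LPS replicate 3.

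Same-numbered libraries did not deviate together (18 pairs, r from -0.045 to 0.062, 0 over 0.1). The labels do not say whether they shared a culture or a preparation, and this check cannot tell. With the replicate block, 3 members passed for LPS in scramble instead of 2 (GSDMD at 0.29, adjusted p = 0.0497, edgeR), and the counts in the other comparisons stayed at 1, 3, 1 and 1. NOD2 and NLRP3 are limited by depth: 3 groups of NOD2 held at most 4 counts per library, and its calls depend on the filter, the tool or a single library.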
